A study of Mus musculus with 2 samples.

Results

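The T cell receptor complex and its coreceptors were described through 10 genes: the CD3 chains Cd3d, Cd3e and Cd3g, the zeta chain Cd247, the coreceptor genes Cd8a, Cd8b1 and Cd4, and the surface receptors Cd2, Cd5 and Cd6. The genes were chosen by name with the differences between these same arrays already known, so their values stand here as a description and no test was made on them. The array carried 37068 gene names, of which 23872 were measured, meaning that at least 1 probe was well above background on both arrays. All 10 members were measured. They had 19 probes, each of 60 bases and each printed as 1 spot.

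The study measured gene expression in the olfactory bulb of mice on 1-colour Agilent arrays. The control group was 1 mouse kept in standard odor conditions and the odor-enriched group was 1 mouse kept in odor-enriched conditions. The sources used here do not give strain, sex, age, the odors or the length of exposure. No allele or other agent was named for either mouse. The sample labels name the olfactory bulb as source and neurons of the bulb as tissue. With 1 array a group, no difference below has a replicate check, and neither the odor conditions, the individual mouse nor the dissection can be told apart from the array.

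Of 13 marker genes of olfactory bulb neurons, 13 were measured on both arrays, and so were 10 of 10 genes of microglia and macrophages, so the RNA held transcripts of other cells beside neurons. The arrays had 62976 spots each. In the control 73.7% of the spots were well above background, against 67.6% on the odor-enriched array, and the median local background was 17 and 22 intensity units. No spot was saturated. Levels below are log2 signals relative to the 75th percentile of the same array, and differences are odor enriched minus control on the log2 scale. Their median over all measured genes was 0.00.

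The T cell receptor recognises peptide held by MHC molecules, but its antigen-binding chains have almost no cytoplasmic tail. The signal passes through CD3 gamma, delta and epsilon and the zeta chain, whose tails carry immunoreceptor tyrosine-based activation motifs that the kinase LCK phosphorylates and ZAP-70 then binds. CD8 binds MHC class I and CD4 binds MHC class II, and each brings LCK to the receptor. Healthy brain parenchyma holds few T cells, most of them near vessels, the meninges and the choroid plexus.

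On the array of the odor-enriched mouse, 9 of 10 members were at least 2-fold higher than in the control, a fold reached by 11.5% of all measured genes. No member was at least 2-fold lower, against 5.52% of all measured genes. At least 8-fold higher levels were seen for 7 members, against 1.21% of all measured genes. The choice of the members used these differences, so nothing is read from those counts. The median difference over the members was 3.82, which is 14.2-fold, and the differences ran from 0.02 for Cd4 to 5.25 for Cd8b1. In bulk RNA, a change in the number of T cells and a change in RNA per T cell cannot be told apart.

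Of the 19 probes, 14 were well above background on both arrays, and 11 of these were at least 2-fold higher on the odor-enriched array, against 11.6% of all probes measured on both. The other 5 divided into 1 that was well above background on the odor-enriched array only, 1 in the control only and 3 in neither. The scanner software's own spot errors gave each of the 14 differences an error of 0.20 to 0.33. Probes of the same gene disagreed more than that, with a pooled standard deviation of 0.63 about the gene's mean over 8234 genes with several measured probes. The gap between 2 probes of a gene has a larger standard deviation than this. Neither the spot error nor the probe spread covers variation between mice.

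**Figure D1:**
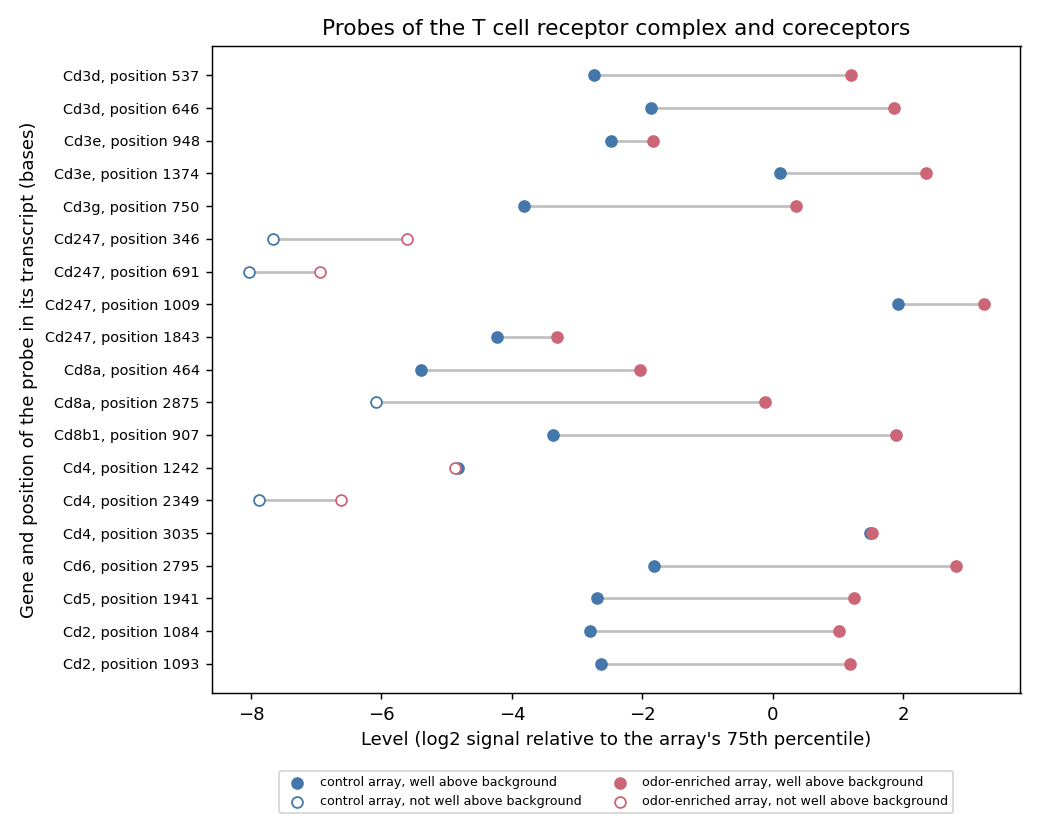
Level of each of the 19 probes on the control array (blue) and the odor-enriched array (red), in log2 units from the 75th percentile of that array, with the gene and the probe's position in its transcript on the vertical axis. Filled points are well above background and open points are not, and a line joins the 2 arrays. The red point lies to the right for all probes of Cd3d, Cd3g, Cd8b1, Cd6, Cd5 and Cd2, while both measured points of Cd4 at position 3035 lie together at 1.49 and 1.51.

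Among the signalling chains, Cd3d encodes CD3 delta, which pairs with CD3 epsilon. Its probe at position 537 of the transcript lay in the coding sequence, at chr9:44794171-44794402 on the plus strand of mm9, a genomic span of 232 bases for 60 bases of probe, so that it crossed an exon junction. It is shown because it encodes the activation motif of the chain. Capitals mark a tyrosine codon and the leucine codon 3 codons on, in a reading frame without a stop, and the probe held 2 such pairs.
Cd3d probe at 537: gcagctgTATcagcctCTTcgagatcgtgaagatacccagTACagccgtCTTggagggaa

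This Cd3d probe gave a processed signal of 37.4 on the control array and 460 on the odor-enriched array. The second Cd3d probe, at position 646 and chr9:44794452-44794511, gave 68.5 and 733. Both probes were low on the control array and high on the odor-enriched array. Their differences were 3.93 ± 0.21 and 3.73 ± 0.21 (error of the spots), closer together than the probe spread of 0.63. The gene's difference was 3.83, or 14.3-fold.

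Cd3g encodes CD3 gamma, the other partner of CD3 epsilon. Its only probe, at position 750 and chr9:44777868-44777927 on the minus strand, gave a signal of 17.8 on the control array and 257 on the odor-enriched array. That is a difference of 4.16 ± 0.22 (error of the spots), or 17.9-fold. It lay above Cd3d by less than the probe spread of 0.63, and below it with normexp, at 2.27 against 2.80.

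Cd3e encodes CD3 epsilon, the chain present in both CD3 pairs, and its 2 probes did not give the same size of difference. The probe at position 948 (chr9:44807254-44807313, minus strand) had a signal of 44.9 on the control array and 56.4 on the odor-enriched array, a difference of 0.64. The probe at position 1374 (chr9:44806828-44806887) had 269 and 1021, a difference of 2.23. The probes were therefore 1.59 apart on the log2 scale, against a standard deviation of 0.63 for probes about their gene's mean. The gene's mean of 1.44, or 2.71-fold, lay between a value short of 2-fold and a value past 4-fold, and turned to -0.33 when the arrays were scaled on the E1A spike-in probes.

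Cd247 encodes the zeta chain, which sits in the receptor as a dimer and also carries signals of Fc and natural cytotoxicity receptors in NK cells. Its 4 probes were designed on different transcript records. The probe at position 346, at chr1:167786567-167787585 on the plus strand of mm9, is shown because it encodes part of the zeta tail. Capitals again mark a tyrosine codon and the leucine codon 3 codons on, and there were 2 such pairs.
Cd247 probe at 346: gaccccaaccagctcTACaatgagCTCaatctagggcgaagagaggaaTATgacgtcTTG

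That coding probe was not well above background on either array, with signals of 1.24 and 4.11. Neither was the probe at position 691, with 0.958 and 1.63. The gene's value therefore rested on the other probes. At position 1009 (chr1:167791567-167791626) the signal was 941 on the control array and 1893 on the odor-enriched array, a difference of 1.32, and at position 1843 (chr1:167800324-167800383) it was 13.3 and 20.3, a difference of 0.92. Their mean was 1.12, or 2.17-fold, the smallest difference of the members past 2-fold. It stood below 2-fold with median centring (0.95) and with normexp background correction (0.85), and turned to -0.64 with the E1A scaling.

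The gene values of the chains that signal together were unlike on these arrays, with Cd3d and Cd3g at 3.83 and 4.16 and Cd3e and Cd247 at 1.44 and 1.12. The Cd3e value averages probes at 0.64 and 2.23. The Cd247 value leaves out the probe for the zeta tail, which was not well above background on either array. A difference between chains therefore cannot be told apart from a difference between probes. The control level was -2.31 for Cd3d, -3.81 for Cd3g, -1.18 for Cd3e and -1.16 for Cd247. Levels of different probes depend on the probe, so these are not amounts of one chain against another.

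Cd3g, Cd3d and Cd3e are neighbours on chromosome 9. The genes on either side of the cluster were Ube4a, with a difference of 0.00, and Mpzl2, with -0.95. The 250 bases upstream of each start, from RefSeq on GRCm38.p6, are shown because these adjacent genes were higher together, Cd3e except under the E1A scaling. Windows lay at chr9:44980432-44980681 for Cd3g (minus strand), chr9:44981536-44981785 for Cd3d (plus strand) and chr9:45009612-45009861 for Cd3e (minus strand). Both strands were searched for the RUNX core TGTGGT, the GATA core AGATAA and the ETS core GGAAGT, which do not overlap in these windows, and capitals mark the matches.
Cd3g upstream: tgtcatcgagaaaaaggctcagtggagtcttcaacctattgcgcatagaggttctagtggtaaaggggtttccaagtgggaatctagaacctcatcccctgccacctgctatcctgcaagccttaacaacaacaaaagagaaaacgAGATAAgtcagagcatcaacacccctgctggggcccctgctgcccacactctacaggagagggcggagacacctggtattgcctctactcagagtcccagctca
Cd3d upstream: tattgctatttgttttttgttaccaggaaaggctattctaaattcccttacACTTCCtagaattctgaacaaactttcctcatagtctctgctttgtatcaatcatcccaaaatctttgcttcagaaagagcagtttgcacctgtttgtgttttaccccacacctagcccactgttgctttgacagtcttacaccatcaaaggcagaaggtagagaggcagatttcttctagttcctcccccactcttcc
Cd3e upstream: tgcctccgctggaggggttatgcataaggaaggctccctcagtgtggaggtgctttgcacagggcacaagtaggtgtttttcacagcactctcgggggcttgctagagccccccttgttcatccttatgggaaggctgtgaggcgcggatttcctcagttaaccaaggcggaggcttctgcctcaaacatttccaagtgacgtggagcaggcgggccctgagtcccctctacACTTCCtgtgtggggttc

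The Cd3g window held the GATA core, and the Cd3d and Cd3e windows held the ETS core on the opposite strand, which reads ACTTCC. Windows were available for 6 of the 10 members. The ETS core stood in 4 of these 6, namely Cd247, Cd3d, Cd3e and Cd5, against 19.7% of 32851 mouse windows of the same length. The GATA core stood in 1 of 6 against 9.99%, and the RUNX core in 0 of 6 against 14.0%. A match of these letters is a description of the window and not a binding site.

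The antigen-binding chains themselves were hardly covered. Of 11 gene names for receptor chains on the array, 7 were well above background on neither array. Trav6-3, an alpha variable segment, differed by 2.26, and Tcrg-V1, a gamma variable segment, by 0.13. Tcrb-J was well above background on the odor-enriched array only and was at least 2.67-fold higher there. Tcra was well above background in the control only, with no fold that could be set. Apart from Tcra, these names are of variable or joining segments, and rearranged receptors that use other segments would have no segment probe among them. What the Tcra probe matches was not checked.

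The coreceptors were compared next. Cd8a encodes the CD8 alpha chain, which forms alpha-alpha dimers or pairs with CD8 beta, and which some dendritic cells also carry. Cd8b1 encodes CD8 beta, found mainly on thymocytes and conventional cytotoxic T cells. Cd4 encodes the coreceptor of helper and regulatory T cells and is also found on some dendritic cells. Of the Cd8a and Cd4 probes, these are shown because each had a reading frame without a stop and lay well before the end of its transcript. The Cd8a probe started at position 464 (chr6:71323885-71323944, plus strand, mm9) and the Cd4 probe at 1242 (chr6:124817706-124817765, minus strand). Neither held the tyrosine and leucine pair, so no letter is in capitals.
Cd8a probe at 464: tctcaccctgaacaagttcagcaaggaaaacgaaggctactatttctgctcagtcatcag
Cd4 probe at 1242: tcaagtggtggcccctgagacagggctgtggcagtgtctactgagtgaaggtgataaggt

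The Cd8a probe at position 464 had a signal of 5.94 ± 1.19 on the control array and 49.2 ± 5.20 on the odor-enriched array (error of the spot). The difference was 3.36 ± 0.33, or 10.3-fold, from a control spot only just above background. The other Cd8a probe, at position 2875 (chr6:71328911-71328970), had 3.67 in the control, not well above background, and 185 on the odor-enriched array. Set against the lowest control level well above background, it was at least 47.3-fold higher. Both Cd8a probes were thus brighter on the odor-enriched array and, on the control array, only just above background or not above it. Because that control signal was so low, the gene's difference ran from 1.08 with normexp to 4.66 when this second probe was included.

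Cd8b1 had 1 probe, at position 907 (chr6:71286937-71286996, plus strand), with a signal of 24.1 on the control array and 741 on the odor-enriched array. Its difference of 5.25 ± 0.21 (error of the spots), or 38.1-fold, was the largest gene value among the members and ranked 15 of all 23872 measured genes. With normexp it came after Cd6, at 3.62 against 3.86. It stayed between 3.49 and 5.59 under all 13 other settings.

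Cd4 had 3 probes, and its value rested on the one nearest the transcript's end. At position 3035 (chr6:124814711-124814770) the signal was 704 on the control array and 575 on the odor-enriched array, and relative to each array's 75th percentile the levels were 1.49 and 1.51. The difference was 0.02 ± 0.20, rank 11683 of 23872. The shown coding probe had 8.85 in the control, well above background, and 6.89 on the odor-enriched array, not well above background. The probe at position 2349 had 1.07 and 2.06 and was well above background on neither. The 3 probes thus disagreed widely on the control array, at 704, 8.85 and 1.07. Which Cd4 transcripts and which cells the probe at position 3035 reads was not checked. The gene value of Cd4 therefore differed by less than 2-fold between the arrays, except under the E1A scaling, which put the difference at -1.74. The sign of so small a difference changed with the setting, from -0.16 with median centring to 0.41 with no filter on dim probes.

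The mean difference of Cd8a and Cd8b1 was 4.31, which exceeded that of Cd4 by 4.29 on the log2 scale, a 19.5-fold larger ratio. Cd8a exceeded Cd4 by 3.34 and Cd8b1 exceeded Cd4 by 5.23, while Cd8b1 exceeded the Cd8a probe at position 464 by 1.89. The Cd8a probe at position 2875, at least 47.3-fold higher, was past the 38.1-fold of Cd8b1, so in the main setting the order of the CD8 chains depended on the probe. With normexp the Cd8a probes at positions 464 and 2875, at 1.08 and 2.37, both lay below Cd8b1 at 3.62. A constant per array cancels in these comparisons, so median centring, the 75th percentile over detected probes, the series matrix constant and the E1A scaling left them as they were. The comparison fell to 2.35 with normexp and was 4.97 when detection on either array sufficed, which brought in the Cd8a probe at position 2875 and the coding probe of Cd4. It was 4.55 with no filter on dim probes, and both of these values use control signals that were not well above background. The comparison rests on 2 measured Cd8 probes against 1 measured Cd4 probe, and the coding probe of Cd4 gives no measured level on the odor-enriched array. Control signals were 704 for the measured Cd4 probe, 5.94 for the Cd8a probe and 24.1 for the Cd8b1 probe. An equal gain in signal units would therefore move the measured Cd4 probe far less on the log2 scale. The Cd4 difference of 0.02 thus does not show that Cd4 RNA was unchanged. The coding probe of Cd4 had a low control signal, 8.85, and read 6.89 on the odor-enriched array, not well above background.

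**Figure D2:**
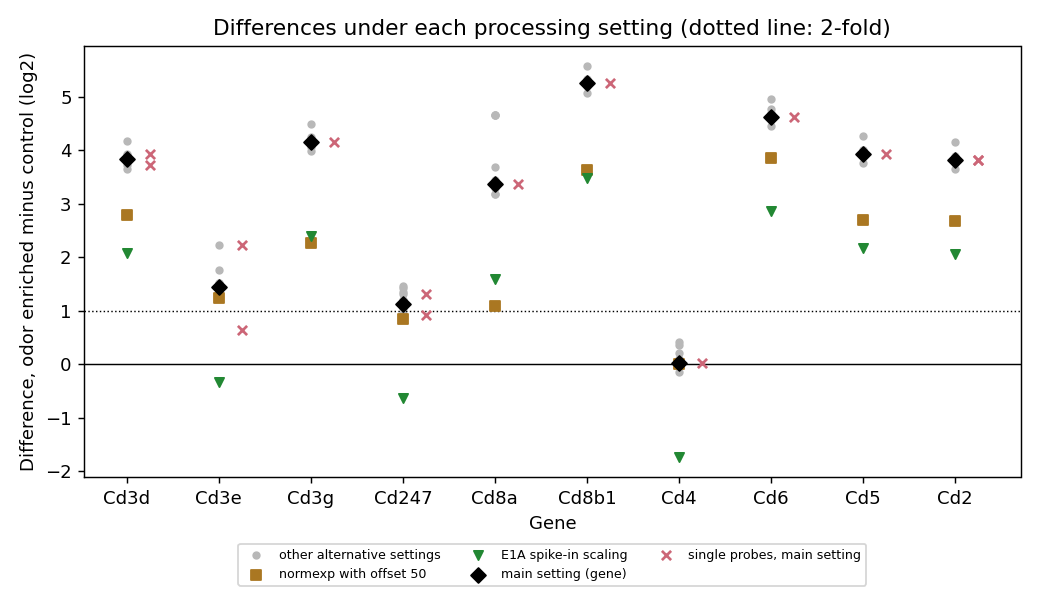
Difference (odor enriched minus control, log2) of each member under the main setting (black diamonds) and under 13 alternative settings, with normexp and the E1A scaling marked and single probes as red crosses; the dotted line is 2-fold. Cd8b1 lies between 3.49 and 5.59 and Cd4 between -1.74 and 0.41, and Cd3e (-0.33) and Cd247 (-0.64) change sign with the E1A scaling only.

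The remaining members were the adhesion and regulatory receptors. CD2 binds CD48 in the mouse and helps T cells and NK cells adhere to other cells. CD5, which tunes receptor signalling down, and CD6, which binds ALCAM, are scavenger receptor cysteine-rich proteins encoded side by side on chromosome 19.

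Cd6 had a signal of 70.7 on the control array and 1405 on the odor-enriched array at its only probe, position 2795 (chr19:10863891-10863950, minus strand). The difference was 4.62 ± 0.21 (error of the spots), or 24.7-fold, and ranked 31 of 23872. Cd5 had 38.6 and 475 at position 1941 (chr19:10792701-10792760, minus strand), a difference of 3.93 ± 0.21, or 15.3-fold. Both were low on the control array and high on the odor-enriched array, whereas their outer neighbours Vps37c (0.12) and Slc15a3 (-0.00) had differences near 0.

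Cd2 was read by 2 probes that share 51 of their 60 bases, at positions 1084 and 1093 (chr3:101079831-101079890 and chr3:101079822-101079881, minus strand). Their signals were 35.8 and 406 for the first and 40.3 and 457 for the second, control before odor enriched. Both gave a difference of 3.82, or 14.1-fold. Since the probes overlap, they repeat 1 measurement rather than give a second.

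Ordered by difference, Cd8b1 (5.25) came before Cd6 (4.62), Cd3g (4.16), Cd5 (3.93), Cd3d (3.83), Cd2 (3.82) and Cd8a (3.36), followed by Cd3e (1.44), Cd247 (1.12) and Cd4 (0.02). From Cd3g to Cd8a, neighbours in this order lay closer together than the probe spread of 0.63, and so did Cd6 and Cd3g, and Cd3e and Cd247. Cd8b1 and Cd6 lay 0.63 apart, the same as that spread at 2 decimals. The wider steps were those between Cd8a and Cd3e and between Cd247 and Cd4.

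**Figure D3:**
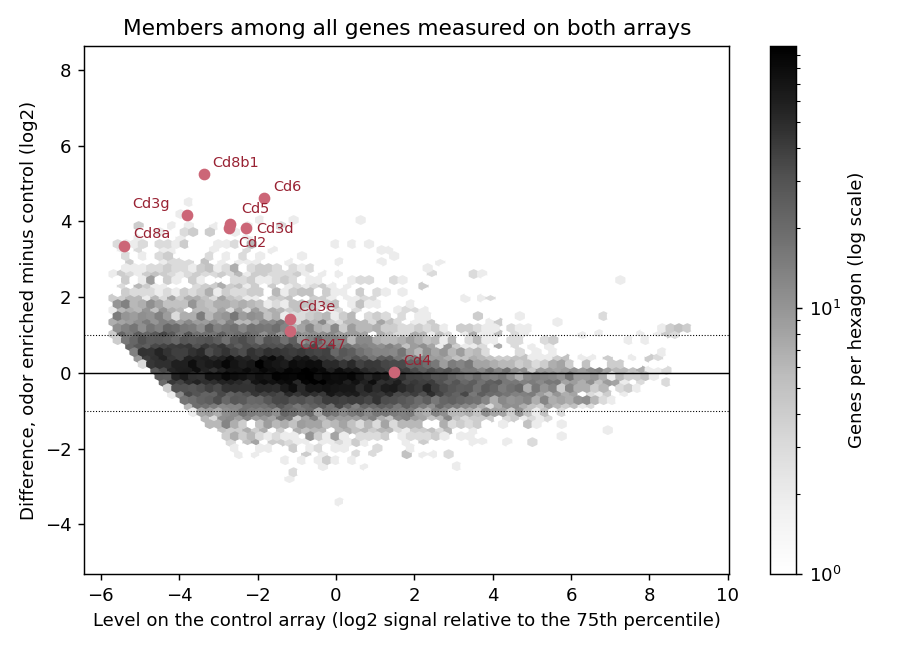
Difference (odor enriched minus control, log2) against the level on the control array (log2 signal relative to the 75th percentile) for all 23872 measured genes, shaded by the number of genes per hexagon on a log scale, with the members in red. Members with control levels from -5.40 (Cd8a) to -1.82 (Cd6) lie between 3.36 and 5.25, Cd3e and Cd247 lie at 1.44 and 1.12, and Cd4 lies at 0.02.

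None of the 19 probes lay in a bright patch of the array. The median difference of the spots around each member's spot ran from -0.20 to 0.49. Of 12 genes that neighbour a member in the genome and are not members, 11 were measured, and 1 of these, Gm1070 next to Cd8b1, was at least 2-fold higher (1.18), with 0 at least 2-fold lower. Next to Cd8a, Rmnd5a differed by 0.20, and next to Cd4, Gpr162 differed by -0.80 and Lag3, a CD4-related inhibitory receptor, by 0.52.

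Of 24 genes listed for receptor signalling in the T lineage, 18 were measured, with 13 at least 2-fold higher and 0 lower. Their median was 2.01, against 0.00 over all measured genes. Not all of them are confined to lymphocytes, and which cells gave their signals was not tested. Among the highest were the adaptor Lat (3.61) and the TEC kinase Txk (3.41), and the lowest were Ubash3a (-0.36) and Rasgrp1 (-0.04). Grap2, Themis, Sh2d1a and Trat1 were well above background on the odor-enriched array only, higher there by at least 2.61, 2.66, 2.32 and 2.43 on the log2 scale. Sla2 was well above background in the control only. Lck and Zap70, singled out after their values were seen because they act directly at the coreceptors and at the CD3 and zeta tails, differed by 2.90 and 2.12.

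Signalling genes used by many cell types differed less. Of 20, all were measured, 1 was at least 2-fold higher, 1 was at least 2-fold lower and the median was 0.20. Malt1 (1.25), Cblb (0.94) and Nfatc2 (0.82) were the highest, and the kinase Fyn (-0.81) and the diacylglycerol kinase Dgkz (-1.08) the lowest. Of 10 transcription factors of the T lineage, 3 were at least 2-fold higher, none was lower and the median was 0.43. These were Gata3 (3.36), Ikzf3 (1.88) and Ets1 (1.62), while Bcl11b (-0.13) and Tox (-0.37) were the lowest.

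Genes of the CD8 T cell programme were set beside genes of the CD4 T cell programme. Of 12 CD8 programme genes, 11 were measured, with 9 at least 2-fold higher, 0 lower and a median of 2.61. The chemokine Ccl5 (5.45), the granule protein Nkg7 (4.94) and granzyme B, Gzmb (4.18), were the highest, and Prf1 (0.58) and Eomes (-0.36) the lowest. Xcl1 was well above background on the odor-enriched array only and at least 13.6-fold higher. Several of these genes, among them Ccl5, Nkg7, Gzmb, Prf1 and Klrk1, are also expressed by NK cells. The transcription factors Eomes and Tbx21 had control levels of 0.49 and -1.51 and differences of -0.36 and 3.11. Which cells of the bulb gave these 2 signals was not tested, so neither value is a reading of CD8 T cells alone.

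Of 15 CD4 programme genes, 9 were measured, with 1 at least 2-fold higher, 1 at least 2-fold lower and a median of -0.19. Tnfrsf4, the OX40 receptor, differed by 1.27, Il2ra by 0.83 and Foxp3, the regulatory T cell factor, by 0.28. The lowest was Ccr6 (-3.19). Il4 and Il17a were well above background on the odor-enriched array only, at least 3.36- and 3.55-fold higher, and Il2 and Cxcr5 in the control only. Summed over the measured genes, in multiples of the array's 75th percentile, the CD8 programme went from 4.80 in the control to 97.7 and the CD4 programme from 8.54 to 4.74. Each change in sum leaned on 1 gene. Without Ccl5 the CD8 programme went from 2.98 to 18.3, and without Ccr6 the CD4 programme stood at 4.16 and 4.26, with no fall.

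Of 16 costimulatory and inhibitory receptors, 12 were measured, 6 were at least 2-fold higher, 0 were lower and the median was 0.95. Cd226 (4.89), Icos (3.96) and Cd28 (2.10) were the highest, and Slamf6 (0.18) and Havcr2 (0.13) the lowest. Ctla4, Cd96 and Cd160 were well above background on the odor-enriched array only, higher there by at least 1.65, 3.33 and 1.25 on the log2 scale.

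Of 10 genes listed for ligands of the members, 9 were at least 2-fold higher and the median was 2.25. The list includes the invariant chain Cd74, which belongs to the class II side but is not itself bound by CD4. On the MHC class I side, bound by CD8, H2-D1 differed by 2.56, H2-K1 by 2.31 and B2m by 2.19. On the class II side, bound by CD4, H2-Eb1 differed by 5.12, H2-Ab1 by 4.68 and H2-Aa by 2.12. Cd74 differed by 3.66. The class II genes were thus higher while the measured Cd4 probe differed by 0.02. The CD2 ligand Cd48 differed by 1.32, Cd72, reported to bind CD5, by 1.59 and the CD6 ligand Alcam by -0.39.

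**Figure D4:**
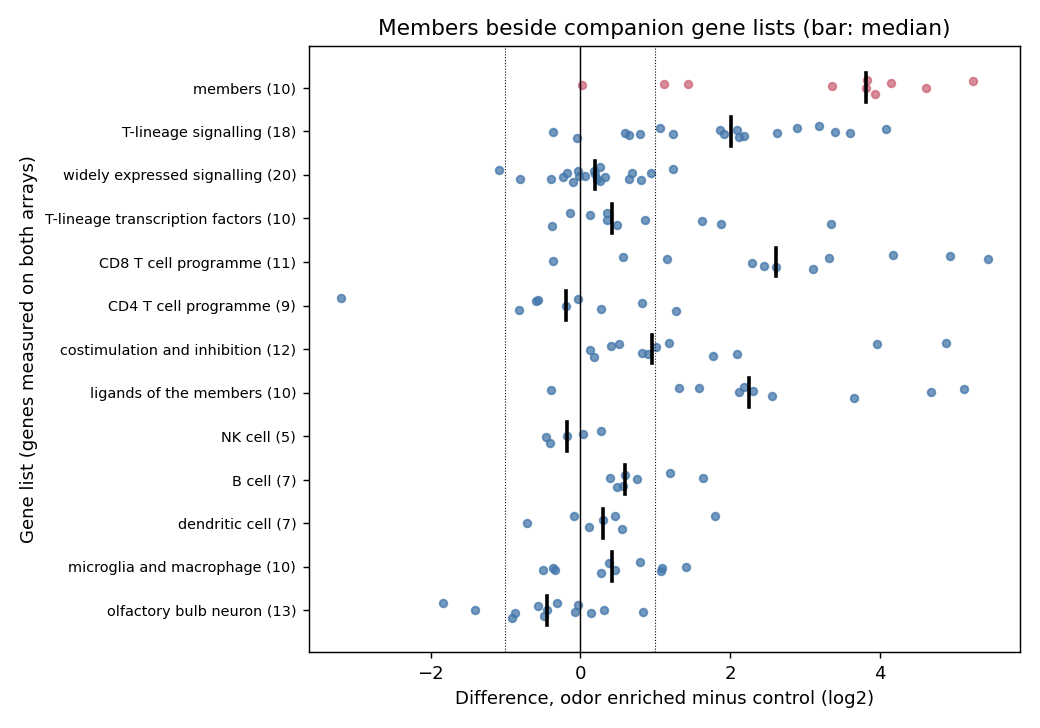
Difference (odor enriched minus control, log2) of each measured gene, by gene list, with the number of measured genes in brackets, a black bar at the median and dotted lines at 2-fold; the members are red and points are spread vertically only for legibility. Medians are 3.82 for the members, 2.61 for the CD8 programme, 2.25 for the ligands and 2.01 for T-lineage signalling, and -0.19 for the CD4 programme, and with the E1A scaling every list drawn here except those for the members, the CD8 programme, the ligands and T-lineage signalling has a median below 0.

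Several members are also expressed outside conventional T cells, and markers of those cells were read on the same arrays. Of 9 NK cell markers, 5 were measured, 0 were at least 2-fold higher or lower, and the median was -0.18, the value of Klrb1c. Their summed level was 101 on the control array and 95.3 on the odor-enriched array, most of it from Klrb1c, whose level was 5.99 and 5.81. Tyrobp (0.04), Fcer1g (0.28) and Fcgr3 (-0.41), also expressed by microglia, differed little. Klra4 and Klra8 were well above background on the odor-enriched array only, at least 8.72- and 5.91-fold higher, and the defining marker Ncr1 was well above background on neither array. The part of NK cells in the Klrb1c signal and in the difference of Cd247 and Cd2 was not tested.

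Of 10 dendritic cell markers, 7 were measured, 1 was at least 2-fold higher, none of those measured was lower and the summed level was 11.4 and 12.7. Most of that sum was Siglech, without which it was 0.990 and 1.42. Ccr7 differed by 1.81, Clec9a was at least 4.77-fold higher, Itgae, well above background in the control only, was at least 2.26-fold lower, and Xcr1 was above background on neither array. Of 10 B cell markers, 7 were measured, 2 were at least 2-fold higher, Fcer2a and Ms4a1 (1.64), and the summed level was 2.17 and 4.03, with Cd79a in the control only and Blk and Fcrla on neither array. Of 10 microglia and macrophage markers, 3 were at least 2-fold higher, none was lower and the summed level was 109 and 121. The part of these cells in the members' differences was not tested.

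Of 7 thymocyte genes, 4 were measured and 2 were at least 2-fold higher, Dntt (1.13) and Themis2, the latter better known from B cells and macrophages, while the defining genes Rag1, Rag2 and Ptcra were well above background on neither array. Of 6 genes of gamma-delta and innate-like T cells, 5 were on the array and 3 were measured, 0 higher and 1 lower. Zbtb16 differed by -1.10 and Sox13 by 0.61, and Cd163l1 was well above background in the control only. Of the 13 neuron markers, 0 were higher and 2 were at least 2-fold lower, Doc2g (-1.84) and Cdhr1 (-1.40), both of mitral and tufted cells, with a median of -0.45 and a summed level of 65.1 and 36.3. The part of the tissue's cell composition in the members' differences was not tested.

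The scaling of the arrays bears on every direction given here. The median over all genes was 0.00 in the main setting, -0.17 with median centring, 0.33 in the series matrix and -1.76 with the E1A scaling. Of the genes at least 2-fold apart, 67.6% were higher on the odor-enriched array in the main setting, 50.9% with median centring, 88.5% in the series matrix and 1.84% with the E1A scaling. Under the E1A scaling 7 members were still at least 2-fold higher, Cd3e and Cd247 were below 0 and Cd4 was more than 2-fold lower, and the lists' medians were 0.25 for T-lineage signalling, 0.85 for the CD8 programme, -1.95 for the CD4 programme and 0.49 for the ligands.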

How the data were processed

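Each mouse gave 1 bulb RNA, which was labelled with Cy3 for 1 array, per the labels. Agilent Feature Extraction 11.5.1.1 made the deposited intensity values, background-subtracted and not normalized between arrays, and the deposited flags for background and outliers, per the file headers. Probe positions are on mm9, per the file headers. The deposited series matrix holds log2 values whose medians were -9.48 (control) and -8.98 (odor enriched). They equalled log2 of the processed signal minus a constant per array (14.5 and 13.8), within 0.001 for 90.4% and 99.8% of probes, with largest deviations of 0.07 and 0.17. The origin of the constants is not given in the sources used here.

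Outlier spots (122 and 183) were left out, log2 intensities were averaged per probe, and each array's 75th percentile was subtracted (7.97 and 7.66). Probes counted as measured when well above background on both arrays, and a gene took the mean of its measured probes. A gene above background on 1 array was given as a bound against the higher of the dim array's lowest level well above background (-5.69 in the control, -4.66 in the odor-enriched array) and its own level there. Called genes are at least 2-fold apart. The script was tested on simulated data, with less noise than between real probes and the same background flags on both arrays. That test checks the computation and not the calls made here. Python 3.11.15 and limma 3.58.1 (R 4.3.3) were used.

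Members, lists and alternatives were chosen with earlier results of these data known. Named were all members with every probe, in each list the 3 highest, the 2 lowest and those above background on 1 array only, and every measured ligand and receptor chain; other names were chosen after their values were seen, and some genes that the rule names are not reported here. The pattern for receptor chains also took Tradd, an adaptor of another pathway, which was removed. Gene order and upstream windows came from RefSeq (GRCm38.p6), where 10 of 10 members matched the gene table. Alternatives were median centring, quantile normalization, the percentile over detected probes, cyclic loess, normexp with offset 50, the series matrix, the median difference of 8 of 10 E1A spike-in probes, outliers kept, 3 other filters on dim probes, the brightest probe, bright patches left out, and thresholds of 1.5- and 3-fold.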

Additional observations from a re-analysis of the deposited data

How the results depend on the processing

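No paired analysis was possible because each group had 1 array, so no replicate could be left out either. The count of members at least 2-fold higher, 9, was 7 to 9 under all 15 alternatives, with 8 under median centring and normexp and 7 under the E1A scaling and at a 3-fold threshold. The median difference of the members, 3.82, was 2.48 with normexp and 2.06 with the E1A scaling. The comparison of Cd8a and Cd8b1 with Cd4, 4.29, was 2.35 with normexp and 4.97 both with probes above background on either array and with the positive-and-significant flag. Cd247 and Cd3e reversed to -0.64 and -0.33 with the E1A scaling, which subtracts a constant from every gene. Among the single members, 19 other values moved by more than the probe spread of 0.63 and 109 did not. Without a filter on dim probes, 80.3% of the genes at least 2-fold apart were higher, and with probes above background on either array 57.6%, against 67.6%. Normexp adds an offset of 50, above the control signals of, among others, Cd3g, Cd8a, Cd8b1, Cd5 and Cd2. Signal over background limited Cd8a, Cd247 and Cd4, whose other probes were not well above background on at least 1 array.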
